A study of Mus musculus with 4 samples.

Results

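The Myc family and its Max network were followed in RNA-seq of 4 sarcomas from W/+ mice, 2 taken from mice given arsenic trioxide (ATO) and 2 from PBS mice. The 10 members were chosen by gene symbol: Myc, Mycn, Mycl, Max, Mxd1, Mxd3, Mxd4, Mxi1, Mnt and Mga. All 10 are among the 56691 genes of the deposited table, and all 10 passed the filter on low counts that left 17188 genes for testing. The members are named genes of 1 pathway, so they are not replicates of a condition.

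All 4 mice were W/+, labelled p53R282W/+, and carried 1 mutant and 1 wild-type allele of Trp53. The labels number the change as in the human protein, and the study describes a knock-in at the equivalent mouse residue in C57BL/6N mice. The ATO mice drank water with 35 mg/L ATO from day 90 of life. The comparison group is labelled PBS, and the study calls it untreated. The mice had no other engineered allele in the labels or the methods, and both groups shared the p53 allele, so the comparison concerns ATO within mutant mice and has no p53 wild-type arm. The sarcomas arose spontaneously, and the type of sarcoma (soft tissue, bone or vessel) and the age at sampling of each mouse are not given in the sources used here. Each sarcoma is 1 library made from its mRNA, and the labels also carry a protocol for dexamethasone-treated cultured cells that does not describe a tumour. The labels do not name the mouse of each sarcoma, so p-values measure the spread between these samples. The sarcomas are called ATO 1, ATO 2, PBS 1 and PBS 2 after the labels.

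The libraries held between 15259695 and 18134000 counts. A count of 0 in a library allows up to 3 counts, which correspond to between 0.165 and 0.197 CPM (counts scaled to library size), and such limits cover counting error only. ATO 2 stood apart by its mitochondrially encoded genes, which took 14.7% of its counts against between 1.98% and 2.59% in the other 3 sarcomas. Vim, an intermediate filament of mesenchymal cells, was present at between 130.5 and 811.6 FPKM (fragments per kilobase of exonic sequence, scaled to the library total), and Col1a1, the chain that makes most of type I collagen, at between 273.3 and 2413 FPKM. The 6 epithelial markers summed to 5.54 FPKM in ATO 1, 20.2 in ATO 2, 1.05 in PBS 1 and 7.77 in PBS 2, with Epcam at most at 3.91 and Cdh1 at 1.70, beside between 1844 and 7005 FPKM for the 8 mesenchymal markers.

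Myc, Mycn and Mycl are basic helix-loop-helix leucine zipper transcription factors that bind DNA as pairs with Max. Myc:Max pairs occupy E-boxes, short sites of which CACGTG is the preferred form, and raise transcription of genes for ribosome synthesis, metabolism and cell growth. The Mxd proteins and Mnt compete for Max and for the same sites, where they bring in the Sin3 corepressor with its histone deacetylases. Mga, a very large protein, also pairs with Max and belongs to a Polycomb complex. Since Max pairs with all of them, the balance of the network is usually read from the level of Myc against that of the Mxd proteins and Mnt, and Myc is a frequent driver of sarcomas and other tumours.

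The E-box is the sequence through which this network acts, so the start-site regions of 4 genes are shown in full, with each CACGTG in capitals. Max, Mnt and Mxd4 are the members whose promoter window held the motif, and Cdk4, a cyclin-dependent kinase gene induced by Myc, is the named target with the most copies. Each stretch runs 5′ to 3′ on the gene's own strand, from 250 bases before to 10 bases after the RefSeq start site on GRCm38.p6.

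Max, chr12:76962239-76962498, minus strand: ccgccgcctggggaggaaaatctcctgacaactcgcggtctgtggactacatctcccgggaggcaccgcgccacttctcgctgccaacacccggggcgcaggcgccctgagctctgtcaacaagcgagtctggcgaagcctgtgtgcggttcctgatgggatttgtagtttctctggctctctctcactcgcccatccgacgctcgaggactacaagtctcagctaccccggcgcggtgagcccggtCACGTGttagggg
Mnt, chr11:74830674-74830933, plus strand: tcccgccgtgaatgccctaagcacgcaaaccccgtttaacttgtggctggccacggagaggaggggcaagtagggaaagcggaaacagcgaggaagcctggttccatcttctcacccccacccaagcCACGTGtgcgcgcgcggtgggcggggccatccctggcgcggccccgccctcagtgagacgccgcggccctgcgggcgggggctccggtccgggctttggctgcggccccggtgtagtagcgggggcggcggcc
Mxd4, chr5:34187701-34187960, minus strand: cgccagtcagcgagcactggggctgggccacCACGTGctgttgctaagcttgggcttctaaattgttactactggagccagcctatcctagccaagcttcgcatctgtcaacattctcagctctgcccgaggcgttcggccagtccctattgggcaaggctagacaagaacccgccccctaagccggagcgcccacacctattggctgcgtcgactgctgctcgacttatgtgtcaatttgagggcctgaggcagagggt
Cdk4, chr10:127063285-127063544, plus strand: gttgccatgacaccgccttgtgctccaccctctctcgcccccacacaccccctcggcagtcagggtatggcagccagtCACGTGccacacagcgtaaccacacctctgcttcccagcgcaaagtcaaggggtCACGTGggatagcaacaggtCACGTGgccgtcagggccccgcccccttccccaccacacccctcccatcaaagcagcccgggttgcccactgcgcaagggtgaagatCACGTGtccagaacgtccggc

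In Max the motif begins 3 bases upstream of the start site and spans it, in Mnt it begins 123 bases upstream and in Mxd4 219 bases upstream. Cdk4 holds 4 copies, which begin 172, 118, 98 and 11 bases upstream. CACGTG reads the same on both strands, so 1 search covered both, and no other motif was searched. RefSeq windows of 250 bases before to 50 after a start were at hand for Mycn, Mycl, Max, Mxd1, Mxd3, Mxd4, Mxi1, Mnt and Mga, and not for Myc. Of these 9 members, 3 (33.3%) held CACGTG, against 8.1% of the 27025 genes with a window and 11.1% of those that were tested. These are matches of letters in a window, and nothing was measured on binding.

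The network was compared between ATO and PBS sarcomas by edgeR's quasi-likelihood test over all 17188 genes. No member passed the test. 9 of the 10 members had a lower fitted level in ATO than in PBS sarcomas, where 50.8% of all tested genes did, and Mxd4 was the exception. The median log2 fold change (ATO minus PBS) was −0.43 over the members and −0.02 over all genes tested. The smallest adjusted p of a member was 0.617, for Mycl. No gene of the whole table passed edgeR's test at an adjusted p under 0.05 (0% of 17188), while 1463 genes had an unadjusted p under 0.05, 5.44% of the genes tested being higher in ATO by that measure and 3.07% lower. None of the 10 members was among these. DESeq2, the other count tool, called 754 genes, 4.13% of those to which it gave an adjusted p, and again no member. With 2 sarcomas against 2, an exact permutation test of a single gene cannot go below 0.333.

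The members with the clearest order were Myc, Mycl, Max and Mnt. In these 4 genes both ATO sarcomas lay below both PBS sarcomas in CPM scaled by TMM, the factor by which edgeR adjusts library sizes, and in the other 6 members the groups overlapped. The same order held in 20.2% of all genes tested. No member had both ATO sarcomas above both PBS sarcomas, an order found in 19.7% of all genes. On the FPKM scale, which divides by the total count including mitochondrial reads, Mxi1 joined these 4.

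**Figure D1:**
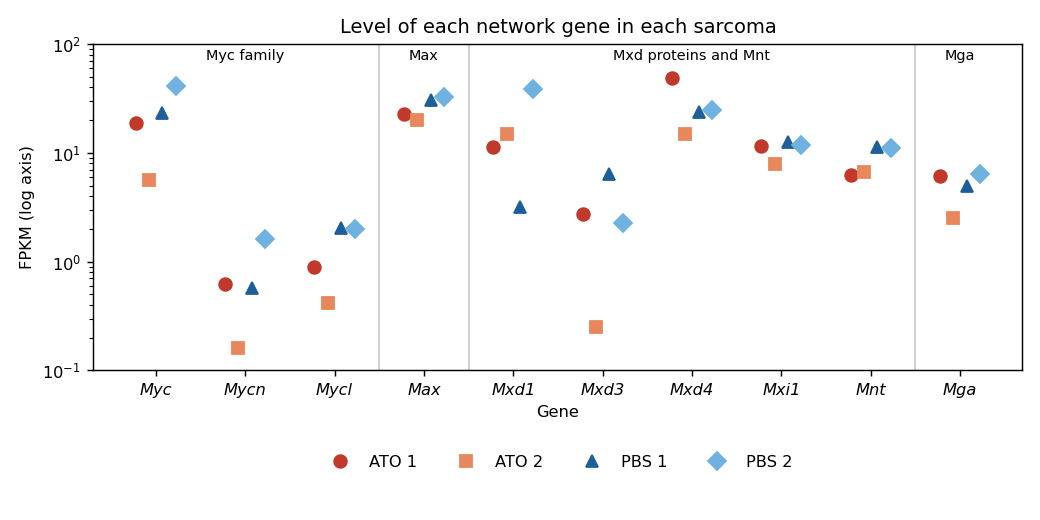
Level of each network gene in each sarcoma, in FPKM on a log axis, with 1 point per sarcoma and grey lines between the roles. The 2 ATO sarcomas (red and orange) lie below the 2 PBS sarcomas (blues) for Myc, Mycl, Max, Mxi1 and Mnt, and ATO 2 is the lowest point for Myc, Mycn and Mycl. The share of all genes with the ATO sarcomas below was not counted in FPKM.

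Myc, the founding oncogene of the family, lies on chromosome 15 at 61985391 to 61990374, plus strand, in the GENCODE M21 annotation of GRCm38. Its level was 18.8 FPKM in ATO 1, 5.67 in ATO 2, 23.4 in PBS 1 and 41.3 in PBS 2, from between 235 and 2018 counts. Both PBS sarcomas were higher than both ATO sarcomas, but ATO 1 lay nearer to PBS 1 than to ATO 2. The mean was 12.2 ± 9.25 FPKM in ATO and 32.4 ± 12.7 in PBS sarcomas (SD, n = 2 each). The fitted log2 fold change was −1.20 (SE 0.64), a level 2.30-fold higher in PBS, with an edgeR adjusted p of 0.651. It ran from −2.10 without ATO 1 to −0.65 without ATO 2 and was −0.75 without PBS 2.

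Mycl, first found as an amplified gene of small cell lung cancer, lies on chromosome 4 at 122995652 to 123002485, plus strand. It was measured at 0.89 FPKM in ATO 1, 0.42 in ATO 2, 2.04 in PBS 1 and 2.00 in PBS 2. The PBS sarcomas were nearly equal, and the ATO sarcomas were both under 1 FPKM. This was the most even separation within the Myc family, on 65, 26, 144 and 145 counts. The mean was 0.66 ± 0.33 FPKM in ATO and 2.02 ± 0.028 in PBS sarcomas (SD, n = 2 each). Its log2 fold change was −1.39 (SE 0.65), the most negative of the 10 members, and the edgeR adjusted p was 0.617. Leaving out any 1 sarcoma left it between −1.85 and −1.05. Its unadjusted p was under 0.05 in limma on log2(FPKM + 1), where the adjusted p was still 0.625. The other members with such a p in an alternative were Myc and Mxd3 without ATO 1 and Mxd1 without PBS 2, each with an adjusted p in edgeR of at least 0.572.

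Mycn, the neuroblastoma oncogene, is on chromosome 12 at 12936093 to 12941914, minus strand. It was the lowest member on average: 0.62 FPKM in ATO 1, 0.16 in ATO 2, 0.57 in PBS 1 and 1.62 in PBS 2. ATO 1 and PBS 1 were alike, and PBS 2 alone was above 1 FPKM, so the groups overlapped. With 37, 8, 33 and 96 counts the gene was detected in every sarcoma. The mean was 0.39 ± 0.33 FPKM in ATO and 1.10 ± 0.74 in PBS sarcomas (SD, n = 2 each). The log2 fold change of −1.28 (SE 0.96, adjusted p = 0.736 in edgeR) shrank to −0.37 without PBS 2.

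Within the family Myc made up between 89.95% and 92.6% of the summed FPKM in each of the 4 sarcomas. Mycl and Mycn thus added little to the family's mRNA in any of them. The family's sum was 20.3 FPKM in ATO 1, 6.25 in ATO 2, 26.0 in PBS 1 and 45.0 in PBS 2. The cycling-cell markers, 10 genes of replication and mitosis, summed to 201.6 FPKM in ATO 1, 37.4 in ATO 2, 180.5 in PBS 1 and 122.8 in PBS 2. Both sums were lowest in ATO 2, while the marker sum was highest in ATO 1 and the Myc family's in PBS 2. The part of cycling cells in the Myc values was not tested, and in bulk tissue fewer cells of a type and less RNA per cell cannot be told apart.

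Max, the shared partner, lies on chromosome 12 at 76937269 to 76962201, minus strand. It was the steadiest member along with Mxi1, at 22.8 FPKM in ATO 1, 20.1 in ATO 2, 30.8 in PBS 1 and 32.7 in PBS 2. The ATO sarcomas lay close together and below the PBS sarcomas, which also lay close together. Its TMM-scaled level was 85.2 ± 4.73 CPM in ATO and 104 ± 3.28 CPM in PBS sarcomas (SD, n = 2 each). The fitted log2 fold change was small, at −0.29 (SE 0.35, adjusted p = 0.845 in edgeR). Without any 1 sarcoma it stayed between −0.34 and −0.25, the narrowest range of the 10 members. Max was 1.13 times the Myc family's FPKM in ATO 1, 3.22 times in ATO 2, 1.19 times in PBS 1 and 0.726 times in PBS 2.

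Mnt, the Mxd-like repressor found in most cells, lies on chromosome 11 at 74830920 to 74845725, plus strand. It was at 6.23 FPKM in ATO 1, 6.66 in ATO 2, 11.3 in PBS 1 and 11.1 in PBS 2. The samples of each group were almost equal and the groups stood well apart. In TMM-scaled CPM, which allows for the mitochondrial reads of ATO 2, the gap narrowed: 28.7 in ATO 1, 37.7 in ATO 2, 47.9 in PBS 1 and 46.6 in PBS 2. The fitted log2 fold change was −0.51 (SE 0.38, adjusted p = 0.736 in edgeR), between −0.71 and −0.34 with any 1 sarcoma left out. Mnt antagonizes Myc, and both had the same order of groups.

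Mxd1, a repressor that accumulates as cells differentiate, lies on chromosome 6 at 86647042 to 86669161, minus strand. It varied most between the PBS sarcomas, with 3.19 FPKM in PBS 1 and 38.2 in PBS 2, against 11.2 in ATO 1 and 14.99 in ATO 2. Both ATO values thus lay between the 2 PBS values, and the TMM-scaled level spanned 11.8-fold over the 4 sarcomas. The log2 fold change of −0.35 (SE 1.14, adjusted p = 0.949 in edgeR) had no stable sign: without PBS 2 it was 2.33, and without PBS 1 it was −1.23. PBS 2 was also the sarcoma with the highest sums of endothelial and erythroid markers. The 8 endothelial markers summed to 1350.2 FPKM in PBS 2 against between 111.3 and 188.6 in the others, and the 6 erythroid markers to 19139 FPKM in PBS 2 against 10833 in ATO 1, 1083 in ATO 2 and 288.8 in PBS 1. Whether these cells had a part in the Mxd1 values was not tested.

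Mxd4, the most abundant member on average, lies on chromosome 5 at 34173883 to 34187720, minus strand. Its level was 48.2 FPKM in ATO 1, 14.8 in ATO 2, 23.9 in PBS 1 and 25.0 in PBS 2. The 2 ATO sarcomas held both the highest and the lowest value, and the PBS sarcomas sat between them. It was the 1 member with a positive log2 fold change, 0.57 (SE 0.61, adjusted p = 0.823 in edgeR). The sign rested on ATO 1, without which the value was −0.31. ATO 1 also had the highest sums of skeletal muscle markers (13714 FPKM, against between 6.38 and 1035 in the others) and of osteoblast markers (488.3 FPKM, against between 4.93 and 13.0). The part of these cells in the Mxd4 values was not tested.

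Mxd3, the member of the Mxd group that is made in dividing rather than in differentiating cells, lies on chromosome 13 at 55325168 to 55329823, minus strand. It was at 2.75 FPKM in ATO 1, 0.25 in ATO 2, 6.43 in PBS 1 and 2.25 in PBS 2. ATO 2 stood far below the rest, on 9 counts against 118, 266 and 96. The log2 fold change was −1.38 (SE 1.21, adjusted p = 0.782 in edgeR), but only −0.42 without PBS 1 and −3.71 without ATO 1. The cycling-cell markers were likewise lowest in ATO 2, and their part was not tested. Exons of Mxd3 overlap those of Prelid1 on the other strand, which had 12919 counts over the 4 sarcomas against 489 for Mxd3. Whether reads were counted by strand is not given in the sources used here, so the Mxd3 counts are uncertain.

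Mxi1, also called Mxd2, the remaining Mxd-type repressor, lies on chromosome 19 at 53310518 to 53375810, plus strand. It was at 11.6 FPKM in ATO 1, 7.82 in ATO 2, 12.7 in PBS 1 and 11.7 in PBS 2. The groups overlapped in TMM-scaled CPM, which varied by no more than 1.22-fold over the 4 sarcomas. The fitted log2 fold change was −0.08 (SE 0.36, adjusted p = 0.967 in edgeR) and turned to 0.06 without ATO 2. No counts were found for the genes on the other strand that share exon positions with Mxd4 and Mxi1. Whether those genes had 0 counts or are absent from the deposited table was not checked.

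Mga lies on chromosome 2 at 119897228 to 119969581, plus strand, and was at 6.10 FPKM in ATO 1, 2.54 in ATO 2, 4.99 in PBS 1 and 6.34 in PBS 2. ATO 1 and the PBS sarcomas were alike, and ATO 2 was the low sample. The log2 fold change was −0.17 (SE 0.48, adjusted p = 0.942 in edgeR) and became 0.25 without ATO 2. The 9 genes of its Polycomb complex, PRC1.6, showed no common direction, with 4 fitted higher and 5 lower in ATO and a median log2 fold change of −0.20. E2f6, the DNA-binding repressor of that complex, was the highest at 0.58 (SE 0.36), and Rybp, a subunit of its ubiquitin ligase, the lowest at −0.63 (SE 0.45). Neither passed the test (adjusted p = 0.688 and 0.726 in edgeR).

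Over all members in TMM-scaled CPM, ATO 2 was the lowest sarcoma for 7 genes and the highest for none. On that scale PBS 1 and PBS 2 were each the highest for 4. The count of members whose groups did not overlap moved with ATO 1. Without ATO 1, 9 of the 10 members lay below both PBS sarcomas, Mxd1 being the exception, against 35.2% of all genes, and without ATO 2 the count was 4, against 34.5%. The direction also moved, with all 10 members fitted lower without ATO 1, and 7 lower and 3 higher without ATO 2. The reads of ATO 2 include the most mitochondrial ones, and without the mitochondrial genes 9 of 10 members were again lower, with the same median of −0.43. TMM had already allowed for those reads, so their removal could change little. Whether the RNA quality or make-up of ATO 2 had a part in the members' values was not tested.

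**Figure D2:**
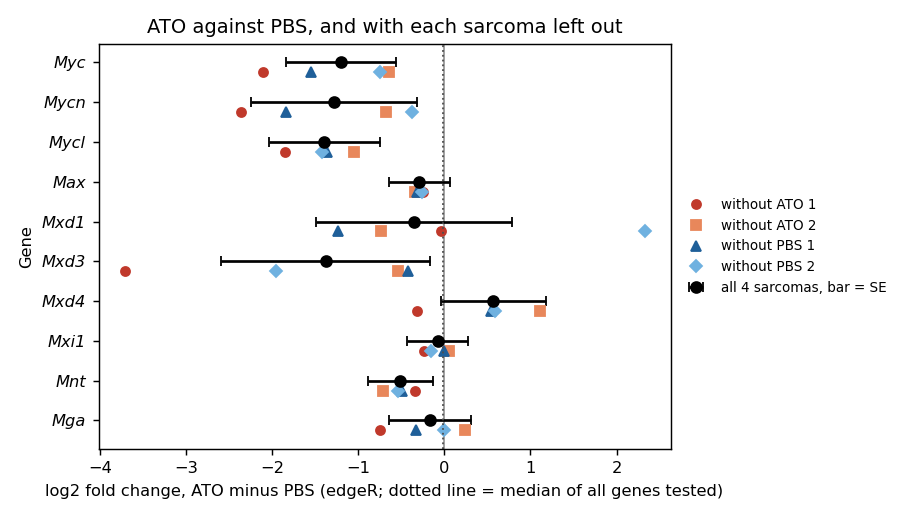
Fitted log2 fold change (ATO minus PBS, edgeR) of each network gene with its SE in black, and the same value with each sarcoma left out in colour. The dotted line is the median of all genes tested. Max stays between −0.34 and −0.25 and Mnt between −0.71 and −0.34 whichever sarcoma is left out, whereas Mxd1 runs from −1.23 to 2.33 and Mxd3 from −3.71 to −0.42.

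Ordered by mean FPKM over the 4 sarcomas, the members ran Mxd4 (28.0), Max (26.6), Myc (22.3), Mxd1 (16.9), Mxi1 (10.9), Mnt (8.82), Mga (4.99), Mxd3 (2.92), Mycl (1.34) and Mycn (0.743). The range of every member over the 4 sarcomas overlapped that of the next in this order. Compared within each sarcoma, Mxi1 stood above Mnt, Mnt above Mga and Mycl above Mycn in all 4. The other neighbours changed places between sarcomas. The leading gene differed between sarcomas: Mxd4 in ATO 1, Max in ATO 2 and PBS 1, and Myc in PBS 2. Myc was among the 3 highest members in ATO 1, PBS 1 and PBS 2, and stood behind Mnt in ATO 2.

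The share of the Myc family in the summed FPKM of the 10 members was 15.7% in ATO 1, 8.51% in ATO 2, 21.8% in PBS 1 and 26.1% in PBS 2. It was thus smaller in both ATO sarcomas than in either PBS sarcoma. The 5 antagonists Mxd1, Mxd3, Mxd4, Mxi1 and Mnt together were 3.95 times the Myc family in ATO 1 and 7.13 times in ATO 2, against 2.21 times in PBS 1 and 1.96 times in PBS 2. The ratio therefore stood higher in both ATO sarcomas. The antagonist that led it was Mxd4 in ATO 1 (60.3% of the antagonists' FPKM) and in PBS 1 (41.6%), and Mxd1 in ATO 2 (33.7%) and in PBS 2 (43.3%). The antagonists' own sum did not separate the groups, at 80.0 FPKM in ATO 1, 44.5 in ATO 2, 57.5 in PBS 1 and 88.2 in PBS 2. No test was made of these ratios, which rest on 2 sarcomas a group and on mRNA rather than protein.

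**Figure D3:**
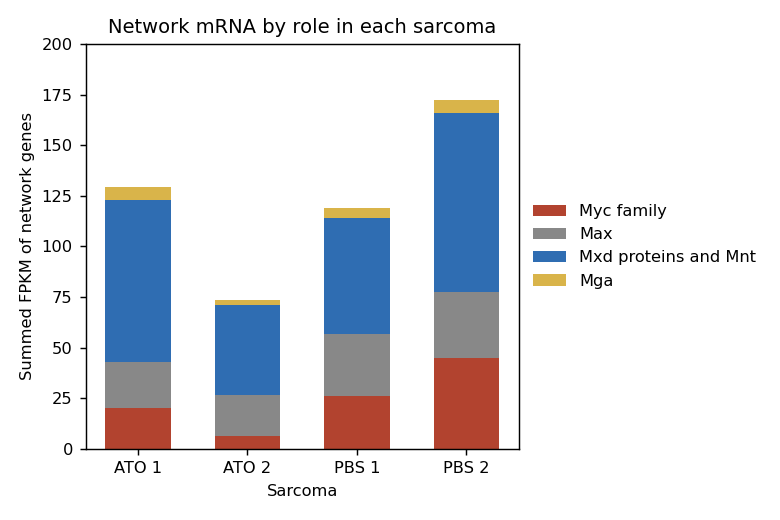
Summed FPKM of the 10 network genes in each sarcoma, stacked by role. The Myc family (red) is 20.3 and 6.25 FPKM in the ATO sarcomas and 26.0 and 45.0 in the PBS sarcomas, while the Mxd proteins and Mnt (blue) make up between 48.2% and 61.9% of each bar.

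The extended network has a parallel arm around Mlx, a Max-like protein that pairs with the glucose-sensing factors Mlxip (MondoA) and Mlxipl (ChREBP), and with Mnt and some Mxd proteins. All 3 genes were fitted higher in ATO, with a median log2 fold change of 1.08, and in 2 of them, Mlxip and Mlxipl, both ATO sarcomas were above both PBS sarcomas in TMM-scaled CPM, as in 19.7% of all genes. In FPKM Mlxip overlapped, at 26.1 in ATO 1, 7.82 in ATO 2, 9.31 in PBS 1 and 9.10 in PBS 2. Without ATO 1 the median of the 3 genes was 0.44. Mlxipl, which drives fat synthesis from sugar in liver and adipose tissue, was at 2.97 FPKM in ATO 1, 72.7 in ATO 2, 0.03 in PBS 1 and 0.25 in PBS 2. It was far higher in ATO 2 than elsewhere, with 6147 counts against 298, 3 and 25. Its log2 fold change was 8.47 (SE 2.25), with an edgeR adjusted p of 0.570 and a DESeq2 adjusted p of 1.089e-06. edgeR without the filter on low counts also called it (adjusted p = 0.003516 in edgeR), as it did 1.75% of the genes so tested, while the adjusted p was between 0.342 and 0.872 in the other 11 alternatives. The value ran from 4.53 to 10.6 with 1 sarcoma left out. The 6 adipocyte markers moved with it, summing to 240.1 FPKM in ATO 1, 1471 in ATO 2, 15.1 in PBS 1 and 74.6 in PBS 2. Adipoq, the adipocyte hormone adiponectin, was at 38.9, 190.6, 0.08 and 0.08 FPKM, and Plin1, which coats fat droplets, at 5.28, 107.6, 0 and 0.01. The part of adipocytes in the Mlxipl values was not tested. Mlx itself was the lowest of the arm, at 0.10 (SE 0.47), overlapped between the groups, and turned to −0.36 without ATO 2 and −0.07 without PBS 2.

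The partners through which the network acts were mostly fitted lower in ATO, and none passed the test. All 8 genes listed for the Sin3 corepressor, among them Ncor1 of a further corepressor, were fitted lower, with a median log2 fold change of −0.25. In 3 of them the ATO sarcomas lay below the PBS sarcomas. Of all genes, 50.8% were fitted lower and 20.2% had that order. Without ATO 2, 3 of the 8 were higher, and without ATO 1 the median was −0.47. Sin3a, the scaffold that Mxd proteins and Mnt contact, was the lowest at −0.56 (SE 0.35, adjusted p = 0.696 in edgeR), and Ncor1, a further corepressor, the nearest to 0 at −0.02 (−0.28 to 0.25 with 1 sarcoma left out). The 10 coactivators and chromatin partners of Myc were also all lower, with a median of −0.55, and in 7 of them both ATO sarcomas lay below both PBS sarcomas, against the same 50.8% and 20.2% of all genes. Without PBS 1, 3 of the 10 were higher. Trrap, the scaffold of histone acetyltransferase complexes that Myc recruits, was at 5.6 FPKM in ATO 1, 3.0 in ATO 2, 10.6 in PBS 1 and 10.2 in PBS 2. Its 2 PBS values were alike and well above both ATO values, with a log2 fold change of −1.04 (SE 0.43, adjusted p = 0.597 in edgeR). Wdr5, which helps Myc onto chromatin, was the nearest to 0 at −0.11 (SE 0.41), and its groups overlapped. It turned to 0.17 without ATO 2 and 0.04 without PBS 1.

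The 12 genes that set the stability of the Myc protein had no common direction, 5 being fitted higher and 7 lower. Their median log2 fold change was −0.28. The list mixes genes that favour Myc breakdown with genes that protect Myc, so this median gives no direction for its stability. Ppp2r5a, a subunit of a phosphatase that favours Myc breakdown, was the highest at 1.76 (SE 0.86, adjusted p = 0.630 in edgeR), led by 57.2 FPKM in ATO 2 against between 9.79 and 18.1 in the others. Cip2a, an inhibitor of that phosphatase which protects Myc, was the lowest at −1.22 (SE 0.96, adjusted p = 0.751 in edgeR), with 0.60 FPKM in ATO 2 against between 4.40 and 8.91. Both were thus set apart by ATO 2 rather than by both ATO sarcomas, and their groups overlapped. Of the neighbours and noncoding partners of Myc genes, Pvt1, the long noncoding RNA gene next to Myc, was tested, Gsdmc had 0 counts, and Mycnos was not analysed here. Pvt1 was at 1.40 FPKM in ATO 1, 0.35 in ATO 2, 0.60 in PBS 1 and 1.58 in PBS 2, with a log2 fold change of −0.11 (SE 0.84). It was high in 1 sarcoma of each group and low in the other.

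The genes that Myc is known to induce were compared as 2 lists. Among 26 nucleolar and ribosome biogenesis genes, 24 were fitted lower in ATO and 2 higher, where 50.8% of all tested genes were lower. The median log2 fold change was −0.52 against −0.02 for all genes, and ran from −0.79 without ATO 1 to −0.36 without ATO 2. In 17 of the 26 both ATO sarcomas lay below both PBS sarcomas, and in 1 both lay above, orders that held in 20.2% and 19.7% of all genes. Ppan, a factor for the large ribosomal subunit, was the 1 gene with an unadjusted p under 0.05, lower in ATO as 3.07% of all genes were. It was at 5.80 FPKM in ATO 1, 4.58 in ATO 2, 13.1 in PBS 1 and 14.1 in PBS 2. The samples of each group were close and the groups were far apart, and the log2 fold change was −1.13 (SE 0.37, adjusted p = 0.570 in edgeR), between −1.17 and −1.09 with any 1 sarcoma left out. Nop56, a core protein of the box C/D particles that modify ribosomal RNA, was the lowest of the list at −1.19 (SE 0.47, adjusted p = 0.585 in edgeR). Rrp12, a factor for export of ribosomal subunits, was the highest at 0.65 (SE 0.71), led by 12.3 FPKM in ATO 1 against between 2.73 and 5.58, and was −0.59 without ATO 1. No gene of the list passed edgeR's or DESeq2's test. The part of tissue make-up in the values of this list was not tested.

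Among 23 growth and metabolism genes, 15 were fitted lower and 8 higher, where 50.8% of all tested genes were lower. The median log2 fold change was −0.51, and ran from −0.71 without ATO 1 to −0.34 without PBS 2. In 9 of them both ATO sarcomas lay below both PBS sarcomas, and in 1 above, against 20.2% and 19.7% of all genes. Srm, spermidine synthase of the polyamine pathway, was at 17.9 FPKM in ATO 1, 11.0 in ATO 2, 42.8 in PBS 1 and 52.3 in PBS 2. Both PBS sarcomas stood well above both ATO sarcomas. Its log2 fold change was −1.47 (SE 0.39, adjusted p = 0.570 in edgeR), with an unadjusted p of 0.0152. Cdk4, whose promoter with 4 E-boxes is shown above, was at 20.8 FPKM in ATO 1, 21.8 in ATO 2, 63.8 in PBS 1 and 47.7 in PBS 2. Its log2 fold change was −1.10 (SE 0.41, adjusted p = 0.583 in edgeR, unadjusted p = 0.0474). Ccnd2, the cyclin D2 gene, was the lowest of the list at −1.67 (SE 0.76), with 42.5 FPKM in PBS 2 against between 4.60 and 11.8 in the others. Tfrc, the transferrin receptor, was the highest at 2.57 (SE 1.30), with 106.3 FPKM in ATO 1 against between 5.14 and 16.1, and was −0.03 without ATO 1. Tfrc is also made in quantity by young red cells. The erythroid markers summed to 10833 FPKM in ATO 1, 1083 in ATO 2, 288.8 in PBS 1 and 19139 in PBS 2. They were thus highest in PBS 2, whereas Tfrc was highest in ATO 1. Their part in the Tfrc values was not tested.

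CACGTG was found in the promoter windows of 6 of 21 nucleolar genes (28.6%) and 7 of 20 growth genes (35%), against 11.1% of the tested genes with a window and 8.1% of all genes with one. Over the 1346 tested genes with the motif the median log2 fold change was −0.03, and over the 10752 tested genes without it −0.01. The motif alone thus went with little difference in fitted fold change over the whole table. In Mybbp1a, a nucleolar gene with a log2 fold change of −0.96, it began 41 bases after the start, and in Eif4a1, a translation factor gene at −0.85, 189 bases before it.

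The 8 genes that Myc represses together with Zbtb17 (Miz1) went both ways, 5 fitted higher and 3 lower, with a median log2 fold change of 0.92. The median rested on ATO 1, without which it was 0.06 with 4 genes higher and 4 lower, and it was 1.64 without PBS 1. In 4 of the 8 both ATO sarcomas lay above both PBS sarcomas, and in 2 below, against 19.7% and 20.2% of all genes. Cdkn1a, Ndrg2 and Cebpa had an unadjusted p under 0.05, higher in ATO as 5.44% of all genes were, and all 3 were called by DESeq2, which called 4.13% of its genes, and by edgeR without the filter (1.75%). Cdkn1a, the cell cycle inhibitor p21 and also a direct target of p53, was at 75.8 FPKM in ATO 1, 49.4 in ATO 2, 5.61 in PBS 1 and 17.9 in PBS 2. Both ATO values were well above both PBS values. Its log2 fold change was 2.67 (SE 0.70), with an edgeR adjusted p of 0.570 and a DESeq2 adjusted p of 0.0193. Ndrg2, abundant in muscle and other differentiated tissue, was at 243.6 FPKM in ATO 1, 67.3 in ATO 2, 5.85 in PBS 1 and 13.5 in PBS 2, with a log2 fold change of 4.21 (SE 0.87). Cebpa, a transcription factor of adipocyte and myeloid differentiation, was at 39.7 FPKM in ATO 1, 86.4 in ATO 2, 14.8 in PBS 1 and 10.5 in PBS 2, with a log2 fold change of 2.66 (SE 0.64). Cdkn1a and Ndrg2 were highest in ATO 1, as the skeletal muscle markers were, and Cebpa in ATO 2, as the adipocyte markers were. The part of those cells was not tested. Cdkn2b, the inhibitor p15 that stands beside Cdkn1a as a classical repressed target, was the lowest of the list at −2.06 (SE 0.94, adjusted p = 0.610 in edgeR), so the list had no single direction.

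**Figure D4:**
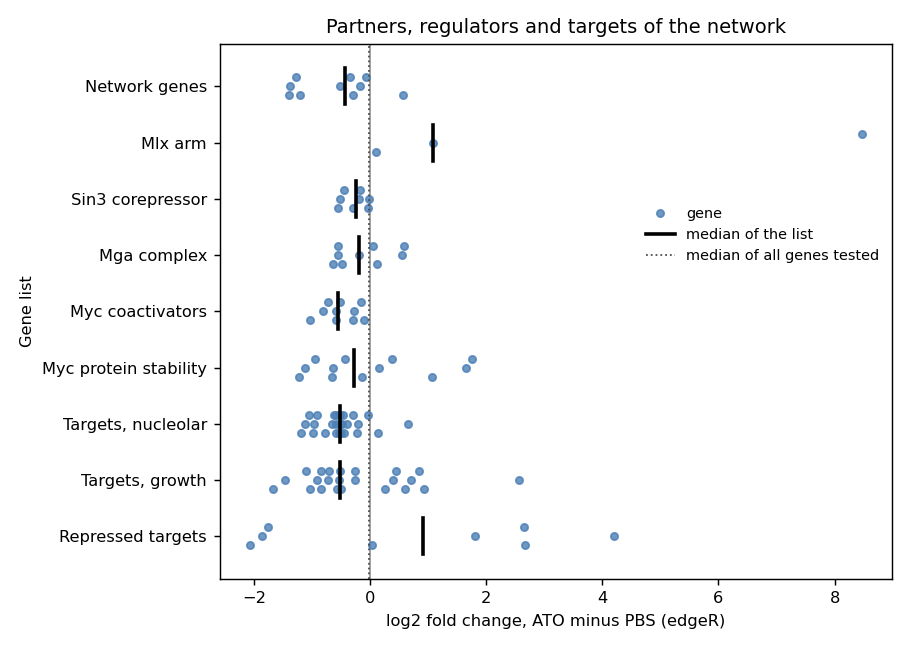
Fitted log2 fold change (ATO minus PBS, edgeR) of each tested gene of the network, its partners and its targets, 1 point per gene, with the median of each list as a black bar and the median of all genes as a dotted line. Coactivators and nucleolar targets lie mostly left of 0, with medians of −0.55 and −0.52, and the repressed targets spread from −2.06 to 4.21.

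The other cell types that a sarcoma can hold differed between the groups as well as within them. All 6 adipocyte markers and all 8 skeletal muscle markers were higher in both ATO sarcomas than in both PBS sarcomas, an order found in 19.7% of all genes, and DESeq2 called 6 and 7 of them (4.13% of its genes). The muscle markers summed to 13714 FPKM in ATO 1, 1035 in ATO 2, 6.38 in PBS 1 and 121.9 in PBS 2. Among them Acta1, skeletal actin, was at 3898, 427.6, 0.78 and 46.5 FPKM in that order, and Ckm, muscle creatine kinase, at 1224, 98.8, 0.10 and 8.56. Tnnc2 had 0 counts in PBS 1, as had the adipocyte markers Plin1 and Lep, and Lep had 0 counts in PBS 2 as well. The sum of the 6 osteoblast markers was high in ATO 1 alone, though their log2 fold changes ran from 0.25 to 8.91. In ATO 1 Bglap (osteocalcin) was at 58.5 FPKM and Ibsp (bone sialoprotein) at 291 FPKM, against at most 0.93 and 0.35 in the others. Sp7, the osteoblast transcription factor osterix, had 0 counts in ATO 2 and PBS 1. The haemoglobin genes Hba-a1 and Hbb-bs ran from 90.6 and 173.4 FPKM in PBS 1 to 6247 and 11236 in PBS 2. Pecam1 and Cdh5, of vessel lining cells, were at 312.4 and 372 FPKM in PBS 2 against at most 49.3 and 62.7 elsewhere. The leukocyte markers varied less, with sums between 180.2 and 392.3 FPKM, Ptprc between 4.12 and 21.01 and Cd68 between 80.8 and 222.7. Of the cycling-cell markers, Mki67 was at 45.4 FPKM in ATO 1, 1.96 in ATO 2, 16.3 in PBS 1 and 11.9 in PBS 2, and Top2a at 14.6, 1.61, 22.3 and 15.3. The 8 mesenchymal genes summed to 5094 FPKM in ATO 1, 1844 in ATO 2, 7005 in PBS 1 and 3080 in PBS 2. The part of these cells in the values of the members, their partners and their targets was not tested.

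**Figure D5:**
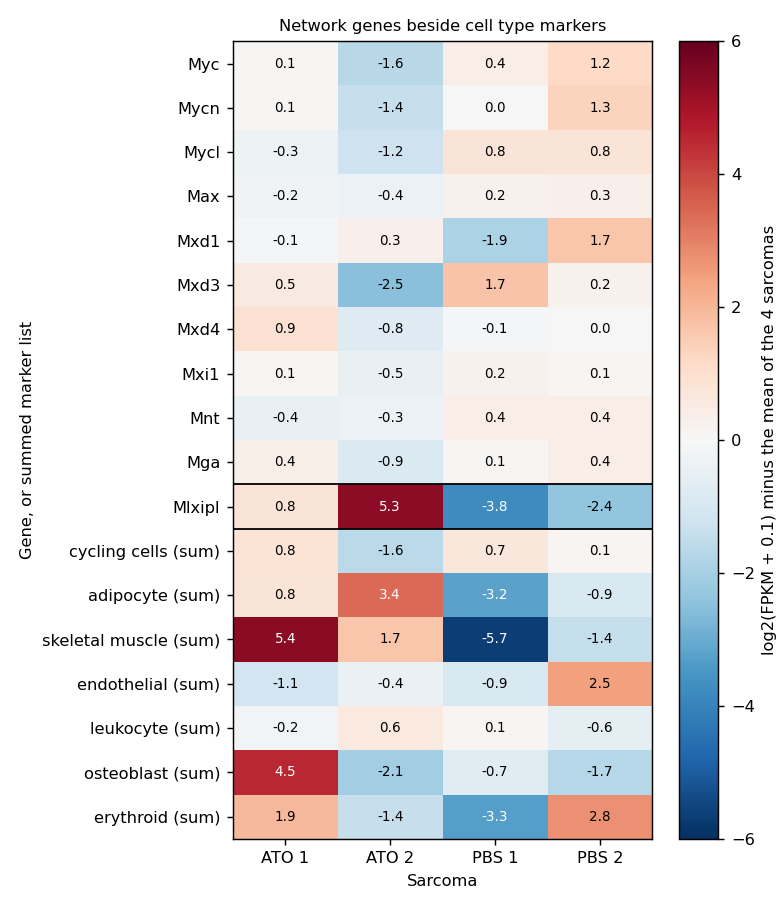
Network genes, Mlxipl and summed cell type markers in each sarcoma, as log2(FPKM + 0.1) minus the mean of the 4 sarcomas, red above and blue below that mean. Myc stands at −1.6 in ATO 2 and 1.2 in PBS 2, Mlxipl and the adipocyte markers are highest in ATO 2 (5.3 and 3.4), and the muscle and osteoblast markers are highest in ATO 1 (5.4 and 4.5).

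The genes whose pattern over the 4 sarcomas was nearest to each Myc family gene were sought among 10885 genes with a mean of at least 10 CPM. The measure was the root mean square difference of log2 TMM-scaled CPM centred on each gene's mean. A small constant was added to every CPM before the log, which shrinks the spread of low genes such as Mycn and Mycl. Nearest to Myc were Abca5, a lipid transporter gene (difference 0.110), Bmp2, a bone morphogenetic protein gene (0.119), and Gsdme, a gasdermin gene (0.140). Only 9 genes came within 0.2 of Myc. Bmp2 was at 11.2 CPM in ATO 1, 3.45 in ATO 2, 14.0 in PBS 1 and 25.3 in PBS 2, beside 50.8, 18.8, 58.3 and 101.7 CPM of Myc. Nearest to Mycn were 2900026A02Rik (0.019), Gnl3, a nucleolar gene of the Myc target list (0.096), and Lpin3, a phosphatidic acid phosphatase gene (0.102). Within 0.2 of Mycn were 15 genes. Mycn ran from 0.641 CPM in ATO 2 to 4.84 in PBS 2, and 2900026A02Rik from 46.3 in ATO 2 to 212.2 in PBS 2. The closeness of these genes thus depends on the added constant. Nearest to Mycl were Trio, a guanine nucleotide exchange factor gene (0.071), Hnrnpa1, a splicing factor gene (0.078), and Mphosph9 (0.080), with 59 genes within 0.2. With 4 sarcomas such a likeness rests on 4 values a gene.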

How the data were processed

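The treatment label set the groups (2 ATO and 2 PBS sarcomas). After trimming (cutadapt 1.9.1), the authors aligned reads with HISAT2 2.0.1 to GRCm38, counted them per gene with HTSeq and deposited the raw counts. FPKM were deposited beside them, and each equalled its count over exonic size and library total to within rounding. Only 1435 of 52073 shared genes (2.76%) had the GENCODE M21 position, so member positions come from GENCODE M21 (GRCm38) by gene ID. Promoters are RefSeq's (GRCm38.p6), matched by symbol for 9 of 10 members.

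edgeR 4.0.16 (R 4.3.3) was run on the counts with filterByExpr, TMM (factors 1.007, 0.822, 1.091 and 1.108 for ATO 1, ATO 2, PBS 1 and PBS 2), trended dispersion and the quasi-likelihood F-test, with Benjamini-Hochberg adjustment over 17188 genes and a threshold of 0.05. Each SE of a fitted log2 fold change was computed as its absolute value over the square root of the F statistic. Libraries held 15259695 to 18134000 counts. Alternatives were DESeq2 1.42.0, its size factors, total counts, no filter, mean FPKM of 1 or more, a replicate block, each sarcoma left out, no mitochondrial genes, and limma 3.58.1 on log2(FPKM + 1) and log2(FPKM + 0.1). Scripts were tested on simulated data.

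The members and lists were chosen with earlier results of these data known. Named are all members, the highest and lowest gene of each pathway list by fitted fold change, its genes at an unadjusted p under 0.05, the first 2 genes of each marker list, and the 3 genes nearest in pattern to Myc, Mycn and Mycl. Mlxip, Gsdmc, Tnnc2, Lep, Sp7, Mybbp1a and Eif4a1 were named after their values were seen.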

Additional observations from a re-analysis of the deposited data

How the results depend on the processing

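No member passed the threshold in any of the 13 alternatives (Mycn was not tested at a mean FPKM of at least 1), and the members' median log2 fold change stayed below 0 in all of them. The number of genes past the threshold, 0 in edgeR, was 754 in DESeq2 (595 higher in ATO and 159 lower) and 541 without the filter on low counts (454 higher, 87 lower), and stayed 0 in every other alternative, each sarcoma left out included. Scaling by total counts moved the median of all genes to −0.28 and that of the members to −0.73, and limma moved them to −0.18 and −0.55 on log2(FPKM + 1) and to −0.27 and −0.68 on log2(FPKM + 0.1), so the members stood about as far below all genes as in the main fit. With 1 sarcoma left out, the lone sample of its group is assumed to vary like the other group. The count of members with all ATO below all PBS sarcomas then ran from 4 to 9 of 10, against 34.5% to 35.5% of all genes. That with all above ran from 0 to 2, against 33.2% to 36.8% of all genes. Signs turned for Mxd1 (0.50 with the replicate block, 0.12 and 0.22 in limma, −1.23 to 2.33 with 1 sarcoma left out), and with 1 sarcoma left out for Mxd4 (−0.31 to 1.12), Mxi1 (−0.235 to 0.058), Mga (−0.75 to 0.25), the median of the Myc stability list (−0.37 to 0.12), and 9 of 18 named cell type markers. The same held for 6 of 22 named pathway genes, which were Pvt1 (−1.22 to 0.73), Mlx (−0.36 to 0.44), Ncor1 (−0.28 to 0.25), Rrp12 (−0.59 to 1.31), Tfrc (−0.03 to 3.63) and Wdr5 (−0.48 to 0.17). Medians of lists that moved beyond their spread without a sarcoma were those of the repressed targets (0.06 without ATO 1, 1.64 without PBS 1), the Sin3 corepressor (−0.47 without ATO 1) and the nucleolar targets (−0.79 without ATO 1). The cause was not tested. The replicate numbers do not pair the sarcomas in the labels, and deviations of same-numbered sarcomas had a correlation of −0.02 over 17188 genes. With the replicate block 0 genes passed, 1165 had an unadjusted p under 0.05, and 8 of 10 members were lower. The block and limma on log2(FPKM + 0.1) gave no separate count of groups that do not overlap. Depth limits Mycn and Mxd3 most, with 8 and 9 counts in ATO 2.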
